A study of Homo sapiens with 18 samples.

Results

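The 62 genes described here were late in the heat shock experiment: in cells treated with a scramble siRNA, the mean level of their RNA changed by no more than 1.5-fold during heat and was at least 1.7 times as high after the cells had been returned to normal temperature. They were chosen from the 26485 gene symbols of the count table by 4 limits on the group means of the scramble libraries, in CPM (the count of a gene divided by all counts of its library, scaled so that each library has the same total). The mean after recovery had to be at least 3 CPM, at least 1.7 times the mean after heat and at least 1.7 times the mean at 37 °C, and the mean after heat had to lie between 0.67 and 1.5 times the mean at 37 °C. Symbols that start with HSP, DNAJ, BAG, HIST, KLF, DUSP, FOS, JUN, EGR or IER were left out, which removed HSPD1, HSPE1 and DNAJB9 from the 65 genes inside these limits.

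The cells were SW620, an established human colon cancer line, transfected with a scramble siRNA or with an siRNA against Lonp1 (siLonp1), which encodes a mitochondrial protease. In each siRNA arm they were kept at 37 °C (Ctrl), kept at 42 °C for 1 h (HS), or kept at 42 °C for 1 h and then at 37 °C for a further 1 h (HS+REC). RNA-seq from a stranded mRNA kit gave 3 libraries for each of the 6 groups, 18 in all, which the study describes as independent biological replicates. CPM is not divided by gene length, so levels are compared between libraries and not between genes. The scramble libraries chose the genes, so their values, and every difference between the arms, are given as a description with no test. The values of the 9 siLonp1 libraries did not enter the limits, and the tests below are between groups of that arm only. The set was, however, chosen with earlier results of these data known.

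Heat shock factors bind heat shock elements, short repeats of GAA and TTC in alternating direction, and raise chaperone genes within minutes of heat. Cells that return to normal temperature resume protein synthesis, and other stress pathways act on the transcriptome in that window, among them the unfolded protein response of the endoplasmic reticulum and the integrated stress response. HSP90, an abundant cytosolic chaperone, works with cochaperones that load its clients and set the pace of its ATPase cycle.

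The letters of the heat shock element were searched in promoter sequences, where a match is a description and not a bound site. RefSeq promoters (GRCh38.p14) were found for 50 of the 62 genes, each reaching from 250 bases before an annotated start to 50 after it. That start need not be the outermost of the gene: for NUDC, NOS1AP and PRDM1 it lay inside the RefSeq span. Both arrangements of a pair of units were searched, the inverted pair GAANNTTC and the tail to tail pair TTCNNGAA, where N is any base, and each reads the same on both strands. At least 1 pair was present in 11 of the 50 promoters (22%), against 9.75% of the 10192 promoters of the genes tested and 13.5% of all 35116 promoters. Overlapping pairs, which make a run of 3 or more alternating units, were found in CHORDC1, ABHD3 and FAM149A, and the 250 bases before their starts are shown for that reason. The pairs stand in capitals, and each sequence is written 5′ to 3′ on the strand of its gene. CHORDC1 lies on chromosome 11 (chr11:90223050-90223299, minus strand), ABHD3 on chromosome 18 (chr18:21704775-21705024, minus strand) and FAM149A on chromosome 4 (chr4:186104454-186104703, plus strand). In the promoter of HERPUD1 (chr16:56931892-56932141, plus strand), shown for its place in the unfolded protein response, the capitals mark a match to the C/EBP-ATF response element, searched as TGATGNAA on both strands.
CHORDC1: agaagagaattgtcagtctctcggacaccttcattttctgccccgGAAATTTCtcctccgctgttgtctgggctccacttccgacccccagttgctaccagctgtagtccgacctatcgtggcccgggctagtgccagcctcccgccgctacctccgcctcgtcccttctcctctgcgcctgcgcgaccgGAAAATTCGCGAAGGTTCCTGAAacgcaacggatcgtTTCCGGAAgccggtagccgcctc
ABHD3: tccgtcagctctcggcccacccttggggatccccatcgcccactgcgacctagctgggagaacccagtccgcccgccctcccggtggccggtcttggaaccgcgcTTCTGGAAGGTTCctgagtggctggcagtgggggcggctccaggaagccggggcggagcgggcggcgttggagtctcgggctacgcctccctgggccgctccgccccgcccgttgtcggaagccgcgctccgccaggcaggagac
FAM149A: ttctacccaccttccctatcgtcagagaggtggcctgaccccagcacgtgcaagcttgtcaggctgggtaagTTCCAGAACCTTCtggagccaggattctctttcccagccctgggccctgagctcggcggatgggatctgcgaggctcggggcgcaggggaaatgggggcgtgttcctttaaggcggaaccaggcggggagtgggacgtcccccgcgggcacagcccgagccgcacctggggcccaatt
HERPUD1: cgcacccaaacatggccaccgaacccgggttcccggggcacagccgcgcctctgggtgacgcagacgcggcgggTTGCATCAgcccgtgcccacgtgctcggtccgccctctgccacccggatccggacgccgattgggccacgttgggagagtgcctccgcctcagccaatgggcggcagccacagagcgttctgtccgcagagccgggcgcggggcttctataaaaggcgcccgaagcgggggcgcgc
CHORDC1 had 6 pairs, and 5 alternating units follow each other without a break in its longest run. Among the promoters of the genes tested, 8 of 10192 (0.0785%) held 3 or more pairs.

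**Figure D1:**
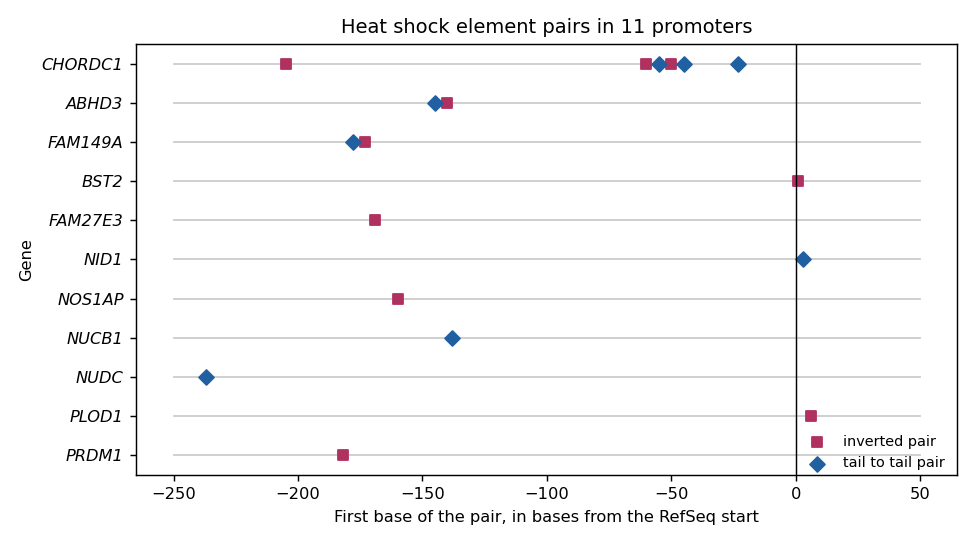
Heat shock element pairs in the promoters of the 11 genes that hold at least 1. The x axis gives the first base of each pair in bases from the RefSeq start used, which for NUDC, NOS1AP and PRDM1 lay inside the gene span. Squares are inverted pairs and diamonds tail to tail pairs. CHORDC1 holds 6 pairs, 4 of them between 60 and 45 bases before the start, whereas 8 genes hold a single pair.

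LONP1, the targeted gene, was low in every library labelled siLonp1. It was at 233 ± 5.73 CPM (SD, n = 3) in Ctrl scramble and at 20.5 ± 1.79 CPM in Ctrl siLonp1, at 222 ± 17.9 and 11.3 ± 0.148 CPM after HS, and at 217 ± 18.9 and 25.7 ± 1.703 CPM after HS+REC. Total counts ran from 30815860 to 47279297, with HS scramble replicate 3 the shallowest library. Of 9 colon epithelial markers, 6 had a mean above 1 CPM, and the summed level of the list was 7511 to 10470 CPM in every library, while CDX1 and LGALS4 stayed under 1 CPM. From HS to HS+REC in siLonp1, 4 of the 7 markers tested fell and 0 rose, with log2 changes of -0.38 for CDH1, -0.31 for KRT8, -0.24 for VIL1 and -0.21 for KRT18. The sum of 9 leukocyte, fibroblast and endothelial markers was 22.1 to 51.1 CPM. Among these COL1A1 rose with heat and again in recovery, from a mean of 9.71 CPM in Ctrl siLonp1 to 15.9 CPM after HS and 31.6 CPM after HS+REC, whereas PTPRC, CD3E, COL1A2, DCN and PECAM1 were under 1 CPM in every library. The part of these marker changes in the results below was not tested.

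In the scramble libraries the median of the 62 genes rose from 10.2 CPM in Ctrl to 10.99 CPM after HS and 24.9 CPM after HS+REC. The ratio of HS+REC to HS had a median of 1.97 and ran from 1.701 in MBOAT7 to 6.92 in FAM13A. These values follow from the limits. The limit on the heat step left room for modest rises. In 24 of the 62 genes (38.7%), among them CHORDC1 and HERPUD1, the 3 HS scramble libraries lay above the 3 Ctrl scramble libraries. This was a larger share than the 21.8% of the genes tested. Just inside the limit on the ratio of HS+REC to HS were MBOAT7 (1.701) and PIWIL2 (1.71), and just outside it were TRIB3 (1.69) and XPNPEP3 (1.68). The ratio of HS+REC to Ctrl was 1.73 in FAM27E3 and 1.74 in GFM2, the lowest inside, and 1.58 in MKNK2 and 1.56 in FICD, the nearest outside. For the level after recovery, FAM13A (3.14 CPM) and MIR503HG (3.31 CPM) were just inside, and ANKRD1 (2.92 CPM) and MAGIX (2.44 CPM) just outside. On the ratio of HS to Ctrl, ZNF761 (1.499) and LCA5 (1.498) were the highest inside, GRAMD1B (1.52) and MUM1L1 (1.55) the nearest above it, and IL20RB (0.847) and MT1F (0.853) the lowest inside, with no gene failing the lower limit alone.

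**Figure D2:**
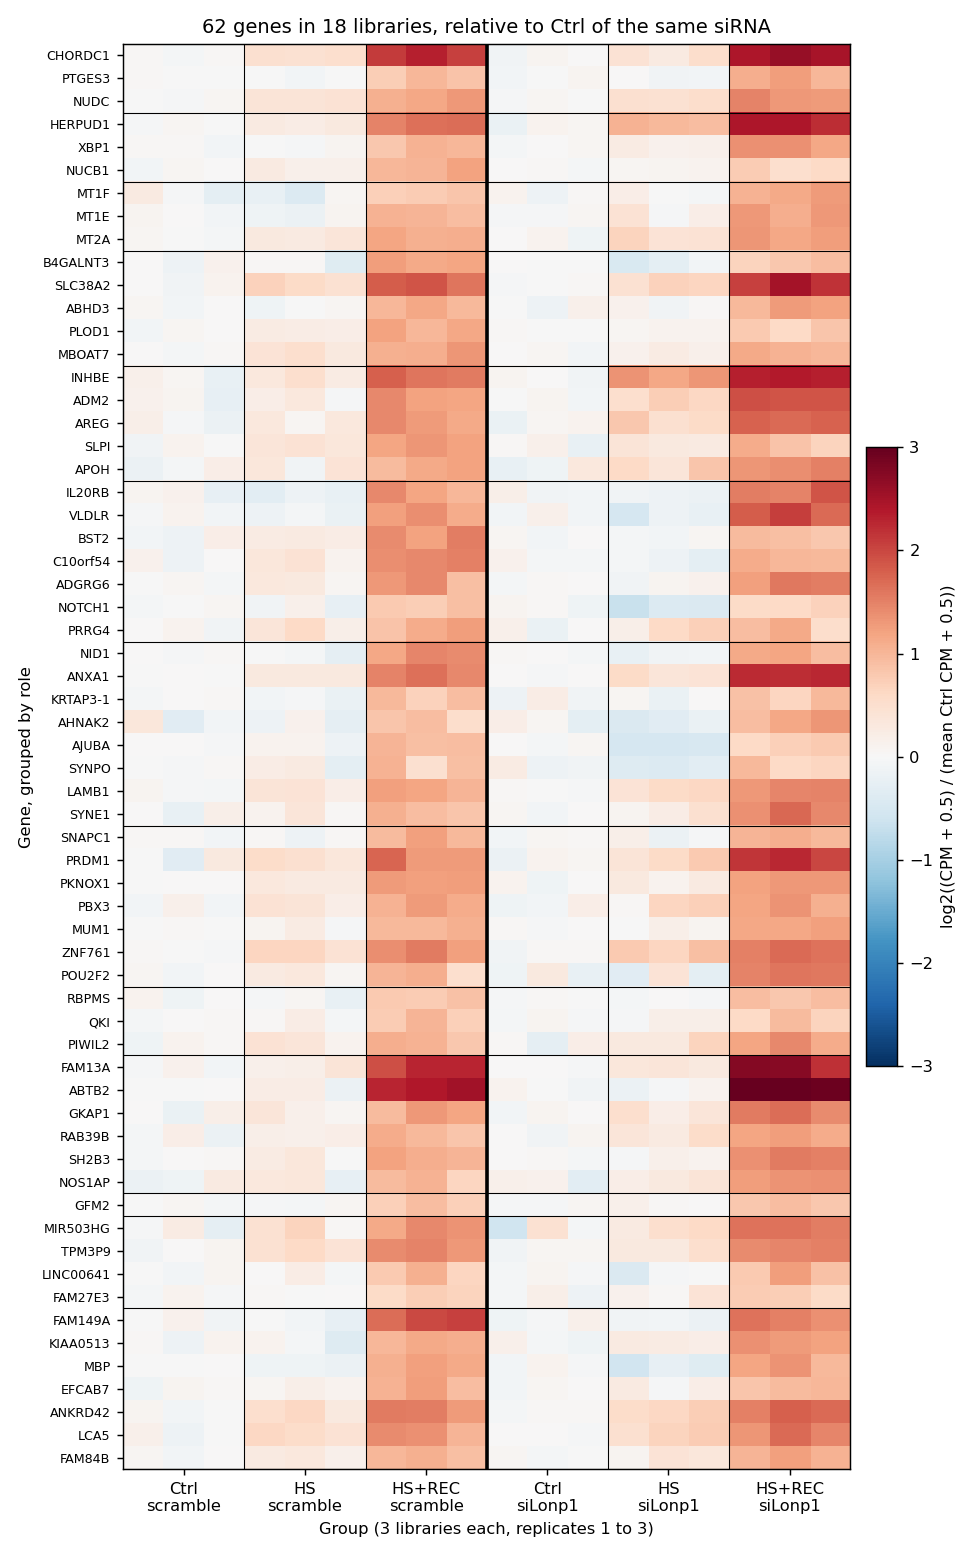
The 62 genes in the 18 libraries, ordered by role. Colour gives log2((CPM + 0.5) / (mean Ctrl CPM of the same siRNA + 0.5)) and saturates at 3, each column is a library, and the thick line separates the scramble from the siLonp1 libraries. The HS+REC columns are red in both arms, and the HS columns stay pale for most genes, with INHBE and HERPUD1 already red in HS siLonp1.

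The recovery rise was present in the arm whose values did not enter the limits. All 62 passed the filter on low counts, but FAM13A and FAM149A did so only through their HS+REC libraries, so counts are given over the other 60. Of these, 59 rose from HS to HS+REC in the siLonp1 libraries (98.3%), against 16.3% of the 12832 genes tested, by edgeR's quasi-likelihood test at a Benjamini-Hochberg adjusted p under 0.05. The rise was above 2-fold in 40 of them, where 1.83% of all genes passed the same call, and 0 of the 60 fell, against 15.6% of all genes. Relative to Ctrl, all 60 rose in HS+REC siLonp1 (24.6% of all genes) and 49 by more than 2-fold (4.51%). Both rises were called in 59 genes (10.4%). The 3 HS+REC libraries lay above each of the 6 other siLonp1 libraries in 59 of the 60, against 9.76% of the genes tested. The median log2 fold change of HS+REC against HS was 1.16 over the 60 genes and -0.01 over all genes tested. SE below is the standard error of a log2 fold change, and the coefficient of variation among 3 replicates of a gene had a median of 6.16% to 9.42% in the 6 groups. In bulk RNA, a change in the share of cells that hold a transcript and a change in the amount per cell cannot be told apart.

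The roles by which the genes are ordered below were assigned after their values had been seen. The HSP90 cochaperones CHORDC1, PTGES3 and NUDC rose together in recovery. CHORDC1 encodes a zinc-binding CHORD domain protein that binds HSP90. In scramble the Ctrl libraries held 116, 110 and 116 CPM, the HS libraries 159, 155 and 160 CPM and the HS+REC libraries 486, 573 and 472 CPM. In siLonp1 the libraries held 103, 117 and 112 CPM in Ctrl, 148, 133 and 160 CPM after HS and 592, 678 and 613 CPM after HS+REC. The HS+REC libraries stood far above all others in both arms, and the small heat step did not bring any HS library near them. CHORDC1 rose by a log2 of 2.13 (SE 0.08, adjusted p = 1.1e-15) from HS to HS+REC in siLonp1, and its heat step was 0.46 (SE 0.08, adjusted p = 2.7e-05).

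PTGES3 encodes p23, the cochaperone that stabilises the closed, ATP-bound state of HSP90. Its level after HS+REC was 1245, 1475 and 1351 CPM in scramble and 1450, 1622 and 1361 CPM in siLonp1. After HS it was 740, 707 and 734 CPM in scramble and 680, 626 and 644 CPM in siLonp1, within or just below the Ctrl libraries of 736 to 757 and 642 to 717 CPM. PTGES3 was not called after heat in siLonp1 (log2 -0.01, SE 0.07, adjusted p = 0.909), and its recovery step was 1.22 (SE 0.07, adjusted p = 2.7e-12). NUDC, a cochaperone with a p23-like domain, went from 338, 330 and 351 CPM after HS to 681, 600 and 590 CPM after HS+REC in siLonp1 (log2 0.91, SE 0.07, adjusted p = 2.0e-10). Unlike PTGES3, NUDC had also risen during heat, by 0.54 (SE 0.07, adjusted p = 4.5e-07).

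**Figure D3:**
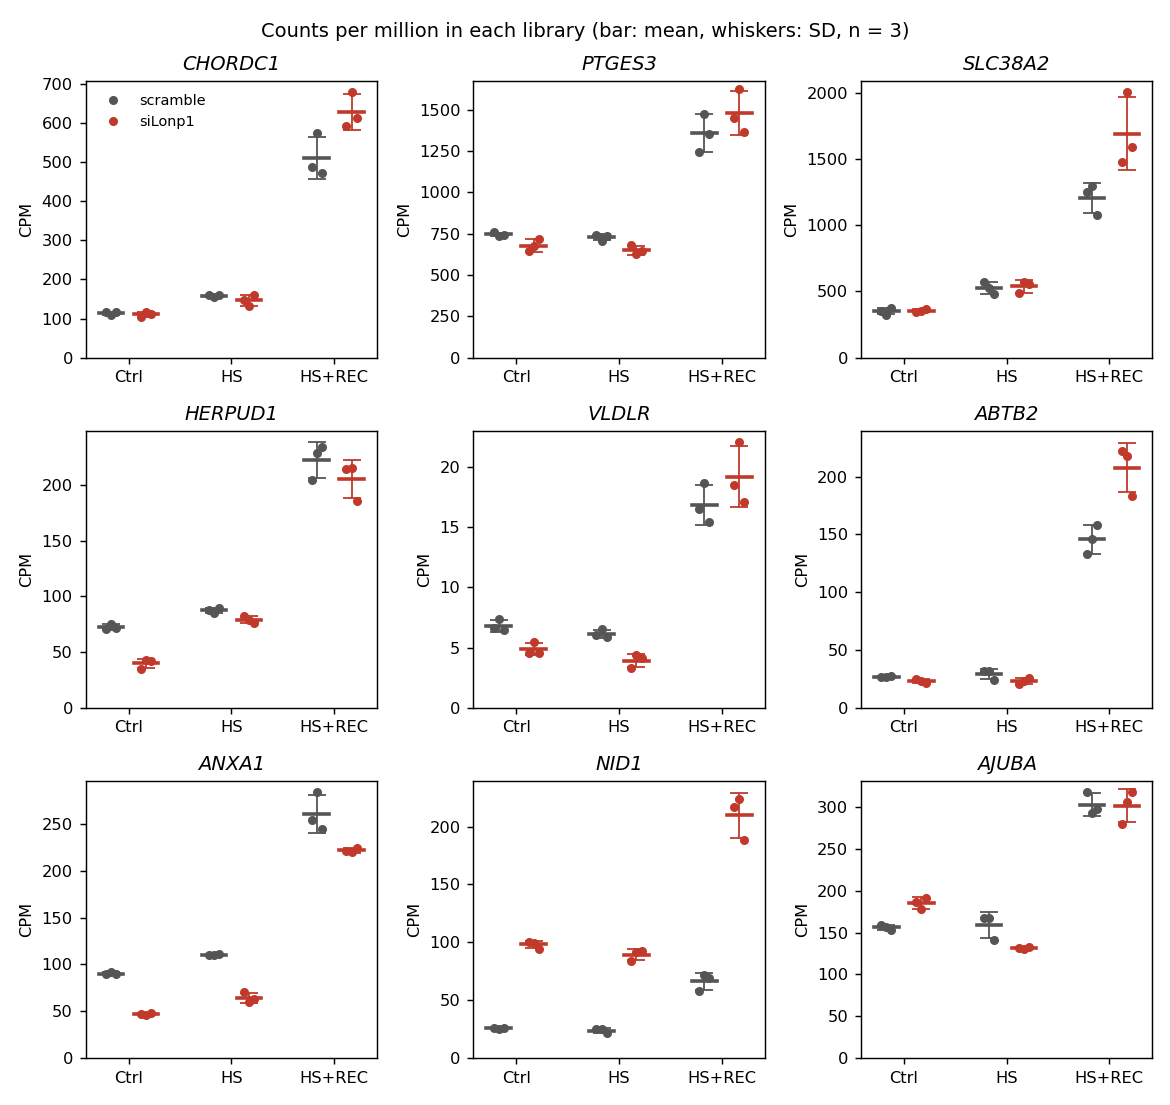
CPM of 9 of the genes in each library (y axis from 0) for scramble (grey) and siLonp1 (red); points are libraries, bars means and whiskers SD (n = 3). In every panel the HS+REC points of an arm lie above its Ctrl and HS points, and AJUBA dips after HS in siLonp1 whereas HERPUD1 climbs.

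Of the endoplasmic reticulum genes, HERPUD1 and XBP1 rose most. HERPUD1 encodes a membrane protein of the degradation machinery of the endoplasmic reticulum and is a standard target of the unfolded protein response. In scramble it had 70.4, 75.2 and 71.8 CPM in Ctrl, 87.8, 85.3 and 89.3 CPM after HS and 204, 229 and 234 CPM after HS+REC. In siLonp1 it started lower, at 34.7, 42.9 and 41.6 CPM, reached 82.7, 78.4 and 76.3 CPM after HS and 214, 215 and 185 CPM after HS+REC. The groups of siLonp1 did not overlap at either step. HERPUD1 rose by 1.04 (SE 0.08, adjusted p = 1.6e-10) with heat and by a further 1.41 (SE 0.08, adjusted p = 1.6e-12) in recovery, on the log2 scale. XBP1, the transcription factor made active by IRE1 splicing, had 132, 121 and 123 CPM after HS and 290, 289 and 251 CPM after HS+REC in siLonp1 (log2 1.17, SE 0.07, adjusted p = 1.2e-11). Its heat step there was 0.22 (SE 0.07, adjusted p = 0.0141), a call that was lost without replicate 1 of Ctrl siLonp1 (0.20) or of HS siLonp1 (0.18). Counts by gene do not separate the spliced from the unspliced XBP1 transcript. NUCB1, a calcium-binding protein of the Golgi, moved less, from 42.5, 43.2 and 43.4 CPM to 68.9, 57.9 and 61.1 CPM (log2 0.57, SE 0.07, adjusted p = 9.5e-07).

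The 3 metallothioneins, small metal-binding proteins, are near-identical in sequence, so reads may be shared among them and each value is uncertain. MT2A went from 362, 305 and 311 CPM after HS to 571, 511 and 545 CPM after HS+REC in siLonp1, and MT1E from 45.9, 32.9 and 38.9 to 84.3, 72.6 and 83.3 CPM. MT1F, at a few CPM, had a log2 change of 1.25 (SE 0.14, adjusted p = 1.3e-07). Against Ctrl the 3 genes rose by nearly the same log2 amount in siLonp1, between 1.32 and 1.35. All 3 were also higher in siLonp1 than in scramble at 37 °C, by 1.68 to 1.91 times.

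Among transporters and enzymes SLC38A2 stood out. It encodes SNAT2, a sodium-coupled transporter of small neutral amino acids that is induced when amino acids run short. It had 572, 522 and 480 CPM after HS and 1247, 1294 and 1075 CPM after HS+REC in scramble, and 485, 572 and 558 CPM after HS and 1480, 2004 and 1590 CPM after HS+REC in siLonp1. Every HS+REC library of siLonp1 was above the highest of scramble. Of 219 solute carrier genes tested, 40 rose and 36 fell in the same step. SLC38A2 rose by 0.65 (SE 0.09, adjusted p = 4.0e-06) with heat and by 1.68 (SE 0.09, adjusted p = 2.5e-12) in recovery in siLonp1. ABHD3, a phospholipase of the alpha/beta hydrolase family, rose from 14.3, 12.1 and 13.5 CPM to 25.9, 32.4 and 30.6 CPM without a called heat step (log2 0.08, adjusted p = 0.55). B4GALNT3, a glycosyltransferase, rose by 1.15 (SE 0.11), MBOAT7, which acylates lysophosphatidylinositol, by 0.93 (SE 0.07), and PLOD1, a lysyl hydroxylase of collagen, by 0.69 (SE 0.06), with adjusted p of 8.0e-09, 8.8e-10 and 1.0e-08.

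The secreted ligands and plasma proteins INHBE, AREG, ADM2, APOH and SLPI were each called after heat and again in recovery in siLonp1, where 20.2% and 16.3% of all genes tested rose. The secreted matrix proteins NID1 and LAMB1 are given with the matrix genes below. INHBE, a subunit of activin E, had 5.91, 5.57 and 5.05 CPM in Ctrl, 14.9, 12.8 and 14.5 CPM after HS and 29.7, 30.5 and 29.98 CPM after HS+REC in siLonp1. In scramble its HS libraries were at 8.25, 9.40 and 7.85 CPM against 7.25, 6.73 and 5.50 CPM in Ctrl, so the groups lay closer together there. INHBE had the largest called heat step among genes with more than a few counts in Ctrl, at 1.40 (SE 0.10, adjusted p = 9.3e-11), followed by a recovery step of 1.13 (SE 0.09, adjusted p = 9.8e-10). AREG, the EGF receptor ligand amphiregulin, went from 14.1, 17.01 and 17.4 CPM in Ctrl to 28.9, 22.7 and 24.2 CPM after HS and 56.5, 53.8 and 56.4 CPM after HS+REC in siLonp1. ADM2, the peptide intermedin, had steps of 0.71 (SE 0.11) and 1.35 (SE 0.10). APOH, a phospholipid-binding plasma protein, and SLPI, a protease inhibitor, were under 10 CPM, with heat steps of 0.82 (adjusted p = 0.00205) and 0.47 (adjusted p = 0.0317). The call of SLPI was lost without Ctrl siLonp1 replicate 3 (0.33) and without HS siLonp1 replicate 1 or 2 (0.42 and 0.49).

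VLDLR led the receptors. It encodes the very low density lipoprotein receptor, which takes up lipoproteins and binds reelin. In scramble it had 6.59, 7.35 and 6.44 CPM in Ctrl, 6.04, 6.5 and 5.87 CPM after HS and 16.5, 18.6 and 15.4 CPM after HS+REC. In siLonp1 it had 4.57, 5.45 and 4.58 CPM in Ctrl, 3.30, 4.36 and 4.11 CPM after HS and 18.5, 22.02 and 17.1 CPM after HS+REC. Every siLonp1 library lay below the scramble libraries in Ctrl and in HS, whereas the HS+REC libraries of the arms overlapped. VLDLR rose by 2.32 (SE 0.11, adjusted p = 3.1e-13) in recovery, and its heat step was -0.27 (SE 0.13, adjusted p = 0.101), which passed the limit when the replicate number was taken as a block (-0.26). IL20RB, a chain of the receptors for interleukins of the IL-20 family, went from 5.63, 5.48 and 5.38 CPM to 18.6, 18.1 and 23.98 CPM (log2 1.91, SE 0.13, adjusted p = 6.7e-11). NOTCH1 fell with heat in siLonp1, from 71.5, 70.1 and 62.1 to 42.8, 50.7 and 50.5 CPM (log2 -0.45, SE 0.08, adjusted p = 0.00012), and then rose to 101, 104 and 109 CPM. Of the other surface proteins, ADGRG6, an adhesion receptor, rose by 1.54 (SE 0.12), C10orf54, the checkpoint protein VISTA, by 1.25 (SE 0.09), and BST2, which tethers viruses, by 1.06 (SE 0.12). PRRG4 was the one gene not called against HS among the 60 that passed the filter without their HS+REC libraries. Its siLonp1 libraries held 1.51, 2.19 and 2.44 CPM after HS and 2.89, 3.43 and 2.08 CPM after HS+REC, which overlap (log2 0.48, SE 0.19, adjusted p = 0.0607). PRRG4 was called after heat (0.72, SE 0.22, adjusted p = 0.0107), but not without Ctrl siLonp1 replicate 2 (0.59) or HS siLonp1 replicate 3 (0.57), and without replicate 3 of HS siLonp1 or of HS+REC siLonp1 its recovery step was called (0.63 and 0.66).

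All 8 genes of matrix, junction and cytoskeleton rose in recovery in siLonp1, where 16.3% of all genes tested rose. NID1, which links laminin to collagen IV in basement membranes, had 25.97, 24.8 and 26.05 CPM in Ctrl scramble and 100, 99.6 and 94.4 CPM in Ctrl siLonp1. After HS it had 25.2, 24.6 and 21.3 CPM in scramble and 83.9, 91.7 and 92.2 CPM in siLonp1, and after HS+REC 58.1, 71.3 and 68.9 CPM and 217, 224 and 188 CPM. Its recovery step in siLonp1 was 1.26 (SE 0.08, adjusted p = 1.7e-11) from a level that in every condition lay above all scramble libraries of that condition. LAMB1, a laminin chain, rose by 0.59 (SE 0.07) with heat and by 0.91 (SE 0.07, adjusted p = 5.4e-10) in recovery. ANXA1, a calcium-dependent membrane-binding protein, showed the opposite arm difference to NID1: 46.9, 46.0 and 47.6 CPM in Ctrl siLonp1 against 89.3, 91.6 and 89.5 CPM in Ctrl scramble. After HS+REC it reached 221, 220 and 225 CPM in siLonp1 and 255, 284 and 245 CPM in scramble, and its siLonp1 step was 1.82 (SE 0.06, adjusted p = 7.6e-16). AJUBA, a LIM protein of adherens junctions and the Hippo pathway, dropped with heat in siLonp1 from 187, 178 and 192 to 131, 130 and 133 CPM (log2 -0.45, SE 0.06, adjusted p = 2.7e-06) and then reached 281, 307 and 319 CPM. In scramble its HS libraries, at 168, 168 and 141 CPM, lay on both sides of Ctrl at 159, 157 and 154 CPM. The steps of SYNPO, AHNAK2, SYNE1 and KRTAP3-1 from HS to HS+REC were 1.27, 1.62, 1.37 and 0.95.

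Of 7 transcription and chromatin genes, all were called in recovery in siLonp1 (16.3% of all genes tested) and 4 also after heat (20.2%), of which PBX3 rested on 1 library, as given below. PRDM1, the repressor Blimp-1, had 4.60, 5.70 and 5.51 CPM in Ctrl siLonp1, 7.06, 8.03 and 9.41 CPM after HS and 25.01, 27.4 and 22.8 CPM after HS+REC (recovery step 1.65, SE 0.14, adjusted p = 3.1e-09). POU2F2, the octamer factor OCT2, had the largest difference between the arms in its recovery step. Its HS+REC libraries held 4.37, 4.58 and 2.88 CPM in scramble and 4.71, 5.17 and 5.11 CPM in siLonp1, whereas its HS libraries held 2.38, 2.49 and 1.98 CPM and 0.967, 1.96 and 1.03 CPM. The siLonp1 recovery step of POU2F2 was 1.96 (SE 0.21, adjusted p = 8.8e-08). PKNOX1 and PBX3, homeodomain proteins of the TALE class that can bind DNA together, rose by 1.08 (SE 0.06) and 0.87 (SE 0.17). The heat call of PBX3 (0.72) was lost without HS siLonp1 replicate 3 (0.56). The zinc finger gene ZNF761 rose by 0.84 (SE 0.08) with heat and 0.87 (SE 0.08) in recovery in siLonp1. It was the only ZNF gene of the 62, and of 407 ZNF genes tested 44 rose from HS to HS+REC in siLonp1 while 158 fell. ZNF761 and the pseudogene TPM3P9 overlap on chromosome 19, where in RefSeq (GRCh38.p14) they span chr19:53431984-53458261 and chr19:53431974-53444672, and 1.13% of the exon bases of ZNF761 lie under TPM3P9, so their shared reads may be counted for either. SNAPC1, a subunit of the complex that binds and activates the promoters of small nuclear RNA genes, rose by 1.09, and MUM1, listed as PWWP3A in RefSeq, by 1.16.

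The RNA-binding proteins QKI and RBPMS, which act in splicing, and PIWIL2, of the piRNA pathway, rose by 0.67 (SE 0.09), 0.96 (SE 0.07) and 1.06 (SE 0.17) in recovery, with adjusted p of 1.8e-06, 5.3e-10 and 3.6e-05. Of these, PIWIL2 also passed the test after heat (0.66, SE 0.21, adjusted p = 0.0131), but without Ctrl siLonp1 replicate 2 or HS siLonp1 replicate 3 the call was lost (0.49 and 0.48). GFM2, a factor of mitochondrial ribosome recycling, was the only gene of mitochondrial translation and went from 88.2, 81.4 and 80.1 to 139, 150 and 140 CPM (log2 0.81, SE 0.07, adjusted p = 1.1e-09).

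ABTB2 had the largest recovery step in siLonp1 among the 60 genes that passed the filter without their HS+REC libraries. It spans chr11:34150987-34358010 in RefSeq (GRCh38.p14) and encodes a protein with ankyrin repeats and BTB domains. It had 26.8, 26.9 and 27.5 CPM in Ctrl, 31.8, 31.8 and 24.1 CPM after HS and 133, 146 and 158 CPM after HS+REC in scramble. In siLonp1 it had 25.1, 23.4 and 21.8 CPM in Ctrl, 20.7, 22.9 and 25.4 CPM after HS and 222, 218 and 183 CPM after HS+REC. Ctrl and HS overlapped in both arms, and every HS+REC library of siLonp1 lay above those of scramble. The siLonp1 recovery step was 3.21 (SE 0.10, adjusted p = 2.1e-16) and the heat step 0.02 (SE 0.10, adjusted p = 0.887). FAM13A had 3, 3 and 2 counts in the Ctrl libraries of siLonp1, 9, 9 and 8 counts after HS and 149, 135 and 85 counts after HS+REC. Because FAM13A passed the filter on low counts only through the HS+REC libraries, its levels are given as a description, with no test. SH2B3, which restrains cytokine receptor signalling, rose from 28.3, 32.3 and 31.3 to 75.9, 86.6 and 84.8 CPM (log2 1.46, SE 0.08). NOS1AP, GKAP1 and RAB39B, an adaptor of neuronal nitric oxide synthase, an anchor of cGMP-dependent kinase and a small GTPase of vesicle traffic, rose by 1.18, 1.41 and 0.90.

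Of the 62 genes, 4 are not protein coding in RefSeq, and all 4 rose in siLonp1, against 16.3% of all genes tested and 81 of 605 genes with a non-coding symbol. They were the long non-coding RNAs LINC00641 (1.19, SE 0.12), MIR503HG (1.45, SE 0.24) and FAM27E3 (0.65, SE 0.15), and the pseudogene TPM3P9 (1.16, SE 0.08). MIR503HG is the host transcript of a microRNA and says nothing of the mature microRNA. Among the genes without a clear common role, FAM149A was barely present before recovery, at 0.545, 0.561 and 0.489 CPM after HS, and reached 2.95, 2.71 and 2.42 CPM after HS+REC in siLonp1. It too passed the filter only through the HS+REC libraries, so these levels are a description with no test. MBP, which encodes myelin basic protein and also a longer isoform outside myelin, fell with heat (-0.35, SE 0.09, adjusted p = 0.00271) and then rose by 1.63 (SE 0.09). KIAA0513, ANKRD42, LCA5, FAM84B and EFCAB7 rose by 1.21, 1.08, 0.93, 0.88 and 0.85. Exons of another annotated gene covered 21.8% of the exon bases of SNAPC1 on its own strand and 21.2% of those of FAM84B on the opposite strand, and less than 20% in the remaining genes.

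The recovery step was larger in siLonp1 than in scramble for 40 of the 62 genes by fitted fold change. The share of all genes tested with a larger step in siLonp1 was not computed. The median fitted log2 step of the 62 was 1.02 in scramble and 1.16 in siLonp1, and that of all genes tested was 0.01 and -0.01. The median ratio of HS+REC to HS, from CPM, was 1.97 in scramble and 2.19 in siLonp1. The largest differences, siLonp1 minus scramble in log2, were those of POU2F2 (1.13), FAM13A (0.89), ABTB2 (0.84) and VLDLR (0.81). The smallest were those of PRRG4 (-0.37), NUCB1 (-0.37), BST2 (-0.35) and FAM149A (-0.34). Because the scramble libraries chose the genes, these differences were not tested.

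**Figure D4:**
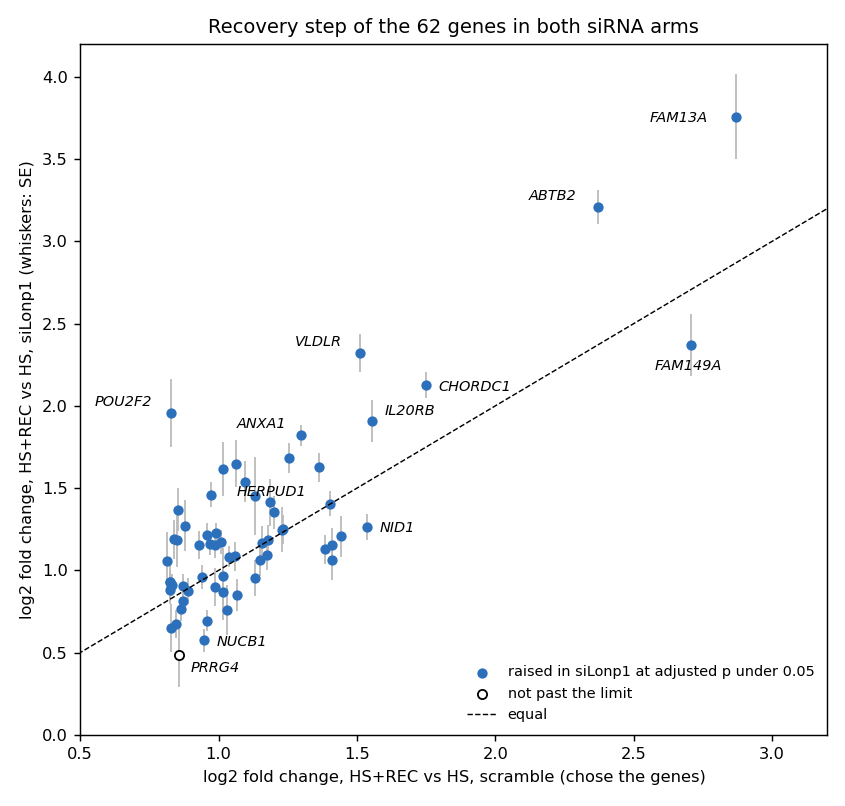
Log2 fold change of HS+REC against HS for the 62 genes in scramble (x axis) and siLonp1 (y axis, whiskers SE). Filled points are raised in siLonp1 at an adjusted p under 0.05 and the dashed line marks equal values. FAM13A and FAM149A are drawn filled, but they passed the filter on low counts only through their HS+REC libraries and count as no test. Points lie on both sides of the line, 40 above it, with POU2F2, FAM13A, ABTB2 and VLDLR farthest above and PRRG4 (open) and NUCB1 below.

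The heat step had a similar median in both arms. The ratio of HS to Ctrl, from CPM, had a median of 1.15 in scramble, where the choice held it at or under 1.5, and of 1.15 in siLonp1, where it ran from 0.707 to 3.22. The 3 HS libraries lay above the 3 Ctrl libraries in 24 of the 62 genes in scramble (38.7%) and in 30 in siLonp1 (48.4%). The shares of the genes tested were 21.8% and 21.2%. Among the 60 genes that passed the filter without their HS+REC libraries, 28 rose from Ctrl to HS in siLonp1 (46.7%), against 20.2% of all genes tested, and 3 fell (5%), against 22.1% of all genes. The other 29 were called in neither direction. FAM13A and FAM149A are left out of these calls, since they passed the filter on low counts only through their HS+REC libraries. By CPM, 47 of the 62 kept a ratio of HS to Ctrl between 0.67 and 1.5 in siLonp1, 15 were above 1.5 and 0 below 0.67. All 4 limits of the choice were met in siLonp1 as well by 38. The shares of all genes tested inside these limits were not computed, so these counts by CPM are a description. Genes called after heat in siLonp1 were thus not raised in recovery alone, and in scramble the limits set a size of the heat step and not a test. For the 28 genes raised by heat in siLonp1, the median heat step was 0.62 and the median recovery step 1.07 on the log2 scale, and the recovery step was the larger in 26. For the other 32, the medians were 0.02 and 1.20. Leaving FAM13A aside, the largest heat steps after INHBE and HERPUD1 were those of ZNF761 (0.84), APOH (0.82), MIR503HG (0.75), LCA5 (0.74) and PBX3 (0.72). The 3 that fell were AJUBA, NOTCH1 and MBP. The heat call of 9 of the 28 genes was lost when 1 siLonp1 library was left out. Besides XBP1, SLPI, PRRG4, PBX3 and PIWIL2, given above, these were MT1E (0.14 to 0.26 without Ctrl replicate 1 or 2 or HS replicate 1), MBOAT7 (0.17 and 0.18 without Ctrl replicate 3 or HS replicate 2) and GKAP1 (0.46 and 0.40 without replicate 1 of Ctrl or HS). MIR503HG lost its call without any 1 of 6 libraries (0.40 to 0.75), namely replicates 1 and 3 of Ctrl and replicates 2 and 3 of HS and of HS+REC.

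A further 38 genes met the same limits in scramble except that they had already risen above 1.5 times Ctrl after HS. In siLonp1, 37 of these 38 rose with heat, against 20.2% of all genes tested, with a median log2 step of 1.57. All 38 rose again in recovery, against 16.3%, with a median of 1.11. Whether some of the 38 passed the filter on low counts only through HS or HS+REC libraries was not checked, so these counts are a description. The recovery step of the 62 genes, at a median of 1.16, was close to theirs. The median heat step of the 62, at 0.25, was smaller, as it was in the scramble libraries by the choice of both sets.

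**Figure D5:**
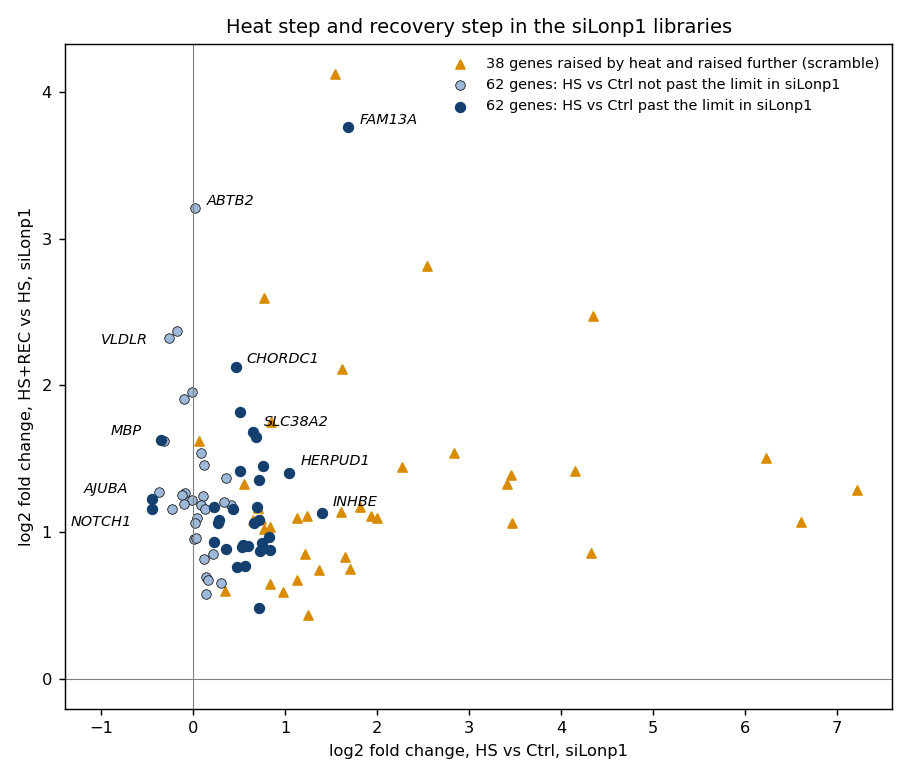
Heat step (HS against Ctrl, x axis) and recovery step (HS+REC against HS, y axis) in siLonp1, both as log2 fold change. Circles are the 62 genes, dark where the heat step passed the test in either direction, and triangles the 38 genes already raised by heat in scramble. The shades of FAM13A and FAM149A count as no test, since both passed the filter on low counts only through their HS+REC libraries. The x value of FAM13A rests on 2 or 3 counts in each Ctrl library. The circles form a steep column near an x of 0, while the triangles spread to the right at similar heights.

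Before heat, some of the 62 genes differed in level between the arms. The ratio of Ctrl siLonp1 to Ctrl scramble had a median of 0.979 and ran from 0.221 in FAM13A, with few counts, to 3.83 in NID1. It was at least 1.5 in 13 genes (21%, against 6.19% of the genes tested), among them NID1, C10orf54, AREG and the 3 metallothioneins, and at most 0.67 in 9 (14.5%, against 7.9%), among them HERPUD1, ANXA1, IL20RB and PRDM1.

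The gene lists of known pathways held 5 of the 62 genes. The lists do not hold every gene of a pathway, so absence from a list does not place a gene outside that pathway. Over all genes tested in siLonp1, 20.2% rose and 22.1% fell with heat, and 16.3% rose and 15.6% fell from HS to HS+REC, and the counts on each list stand beside these shares. VLDLR was the only one on the list of the integrated stress response, the ATF4-driven program that follows phosphorylation of the translation factor eIF2. Of its 20 genes, 13 rose and 4 fell from HS to HS+REC in siLonp1, with a median log2 change of 0.45. Of the 20, 13 had risen with heat and 2 had fallen, among them SESN2 by 2.83 (SE 0.12) and then 1.54 (SE 0.10), and CEBPB by 1.59 (SE 0.17) and then 1.06 (SE 0.15). TRIB3, just outside the limits, rose by 0.52 (SE 0.07) and then 0.98 (SE 0.07). DDIT4 rose by 4.73 and then fell by 0.83, and ATF4 itself rose by 0.59 and then fell by 0.36.

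XBP1 and HERPUD1 were on the list of the unfolded protein response of the endoplasmic reticulum. Of its 14 genes, 3 rose and 7 fell with heat in siLonp1, and 4 rose and 0 fell from HS to HS+REC. Against Ctrl, 3 rose and 4 fell in HS+REC, with a median of 0.00. The others that rose from HS to HS+REC were ERN1, the kinase IRE1, by 0.65 (SE 0.13) after a heat step of 0.83 (SE 0.14), and SYVN1, a ubiquitin ligase of the same degradation machinery as HERPUD1, by 0.88 (SE 0.10). SYVN1 had fallen by 0.80 (SE 0.10, adjusted p = 6.7e-07) with heat, and after recovery it was not called against Ctrl (0.07, SE 0.10, adjusted p = 0.578). Folding factors of the list did not pass the test from HS to HS+REC. The log2 changes were -0.07 (SE 0.06) for HYOU1, -0.04 (SE 0.05) for PDIA4, 0.07 (SE 0.06) for MANF, -0.09 (SE 0.06) for CALR and 0.16 (SE 0.11) for SDF2L1. The median over the list was 0.11 in that step. Against Ctrl, HYOU1 (-0.25) and PDIA4 (-0.215) were called as lower in HS+REC, and MANF, CALR and SDF2L1 were not called. AREG was on the list of growth factor ligands and MAPK feedback, where 8 of 18 genes rose and 4 fell from HS to HS+REC, with EREG at 0.60 (SE 0.11), ERRFI1 at 0.78 (SE 0.06) and HBEGF, not called, at -0.15 (SE 0.10). AJUBA was on the list of YAP and SRF targets, where 6 of 11 rose and 3 fell in recovery, after 4 had risen and 6 had fallen with heat: ANKRD1 rose by 1.704 (SE 0.15) and CYR61 by 0.72 (SE 0.10), whereas TAGLN fell by 0.88 and VCL fell by 0.84. The other 9 pathway lists held none of the 62 genes, and 29 of their 125 entries rose and 43 fell.

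The median span of the 62 genes in RefSeq was 39545.5 bases, against 29219 for all genes tested and 17878 for the 38 genes raised by heat as well, and 12 of the 62 (19.4%) spanned more than 100000 bases, against 17.2% of all genes tested and 7.89% of the 38. Median exon number was 8.5, against 9 for all genes tested. Promoters held the inverted heat shock element pair in 8 of 50 genes (16%), against 4.46% of the genes tested, 11.5% of the 26 promoters of the heat-raised genes and 6.77% of all promoters. The tail to tail pair was in 6 (12%), against 5.82%, 7.69% and 7.74%. A pair was present in promoters of genes with large steps, such as CHORDC1 and FAM149A, and in those of genes with small ones, such as NUCB1, PLOD1 and FAM27E3. The promoters of ABTB2 and VLDLR, with large recovery steps, held none.

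The C/EBP-ATF response element TGATGNAA was in 3 of 50 promoters (6%), those of HERPUD1, IL20RB and SYNE1, against 1.56% of the genes tested and 3.62% of all promoters. The cAMP response element TGACGTCA was in AREG alone (2%), against 3.31% and 1.85%. Searches on both strands gave the AP-1 site TGANTCA in 4% against 4.38% of the genes tested, the E-box CACGTG in 8% against 10.2%, CCAAT in 32% against 36.7% and TATAAA in 12% against 5.43% of the genes tested and 11.5% of all promoters. The ETS core CCGGAAGT was in 6% against 8.96%, and TGACGTAA in 0 of 50 against 0.736%.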

How the data were processed

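The deposited table holds raw read counts per gene symbol, made by the authors. The submitters' processing notes name STAR 2.7.3a, featureCounts, R 3.6.3, edgeR and the hg38 build; the annotation release, the strand setting and the treatment of multi-mapping reads are not given in the sources used here. No column belonged to a sample outside the 18. Totals ran from 30815860 to 47279297 counts a library, and replicates differed by 3.48 to 25.8 times sampling noise (chi-square per degree of freedom), so none were taken as 1 library.

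From these counts, CPM by column sum gave the members of the gene set. The 62 members, the gene lists and the roles were chosen with earlier results of these data known. The tests were edgeR's quasi-likelihood F test (version 4.0.16, in R 4.3.3), scaled by TMM, on 1 fit of all 18 libraries, for the 12832 genes above 1 CPM in at least 3 libraries, with prior count 0.125 and Benjamini-Hochberg adjustment over all of them. The limits were an adjusted p of 0.05 and, for a second count, a fold of 2. SE is the log2 fold change divided by the square root of its F statistic. The code was tested on simulated data. DESeq2 1.42.0 served as an alternative, with other scalings, filters, fits and limits, and with each library left out. Tables and drawings were made with Python 3.11.15. No pseudocount entered a test, and 0.5 CPM was added for the colour map.

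Genes were named if they were LONP1, a member in a gene list, among the 12 largest scramble ratios of HS+REC to HS, the 10 highest scramble HS+REC levels, the 6 largest or 6 smallest siLonp1 recovery steps, the 4 largest or 4 smallest differences between the arms, or next to a limit of the choice. The remaining members and list genes were named after their values had been seen, to place every gene by role.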

Additional observations from a re-analysis of the deposited data

How the results depend on the processing

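No result reversed. Among the 62 genes, the calls of HS+REC against HS and against Ctrl in siLonp1 were the same for every gene tested but PRRG4. This held under other scalings and filters, DESeq2, a fit of the 9 siLonp1 libraries alone and each library left out. With CPM above 1 required in all 18 libraries, 56 of the 62 genes were tested. PRRG4 was gained with no filter on low counts (0.46) and without HS siLonp1 or HS+REC siLonp1 replicate 3 (0.63 and 0.66). The limits of the choice mattered most: ratios of at least 1.5 gave 100 genes, TMM-scaled CPM 64, of which 57 were among the 62, and ratios of at least 2 gave 27. These 27 include FAM13A and FAM149A, which passed the filter on low counts only through their HS+REC libraries, so their calls are no support. With both counted, 27 rose against HS in siLonp1 (26 by more than 2-fold) and 27 against Ctrl (26 by more than 2-fold). After heat 14 were called, 13 up and 1 down, and 18 had a heat fold between 0.67 and 1.5. Over all genes tested, 16.3% rose against HS, 24.6% against Ctrl and 20.2% with heat. Leaving out 1 scramble library changed the number of genes chosen to between 49 and 68, the lowest without HS scramble replicate 3, when 47 of the 62 were kept. The counts with 1 siLonp1 library left out also run over all 62, with FAM13A and FAM149A. They were 61 to 62 genes raised against HS (40 to 44 by more than 2-fold) and 62 against Ctrl (51 to 54). After heat 28 to 34 were called (25 to 31 up, 3 to 4 down). A heat fold inside the limits was kept by 44 to 50, against 46 by fitted fold with all libraries. Without these 2 genes and with all libraries, 59 of 60 rose against HS and 60 against Ctrl. At an adjusted p limit of 0.01, 20 rose with heat. With library size only, 5 genes fell with heat, where TMM gave 3. The replicate numbers did not pair the libraries, since same-numbered libraries correlated between -0.38 and 0.46 in their deviations from the group means. With a replicate block, 5 genes fell with heat, SYNPO and VLDLR in addition, and no recovery call changed. Members that pass the filter on the Ctrl and HS libraries alone were an alternative chosen after seeing the data. Depth limits the genes with few counts before recovery, such as FAM13A and FAM149A, most.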
